A study of Mus musculus with 6 samples.

Results

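The genes described here encode the proteins of the cytosolic ribosome. They are the rows of the deposited count table whose symbol has the form of a ribosomal protein name (Rps or Rpl with a number and at most a short suffix) or is Rplp0, Rplp1, Rplp2 or Rpsa, with at least 60 counts in all over the 6 libraries and without rows named as pseudogenes. These rules took 83 of 16840 rows, 33 of the small (40S) subunit and 50 of the large (60S) subunit, and every symbol of that form met the count minimum. The rule itself uses no measured difference between groups, but it was chosen with earlier results of these data known.

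The ribosome joins a small subunit, which reads the messenger RNA, to a large subunit, which forms the peptide bond. Each ribosomal protein is normally needed in 1 copy per ribosome, apart from the stalk proteins Rplp1 and Rplp2, and the messages for these proteins are among the most abundant in most cells. Many of them begin with a pyrimidine tract (the TOP motif, a terminal oligopyrimidine at the cap), through which the kinase complex mTORC1 and the RNA-binding protein Larp1 govern how strongly they are translated and how stable they are. RNA sequencing measures the amount of these messages, not their translation.

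All libraries came from mouse alveolar macrophages, phagocytes that live in the air spaces of the lung, of genotype WT (wild type), taken at the time labelled day 2. AM stands as the cell line in the labels, with no word on whether it was primary. The 3 groups had 2 libraries each: no GM-CSF, GM-CSF (granulocyte-macrophage colony-stimulating factor, the cytokine on which these cells depend), and GM-CSF plus DON, which the labels do not spell out. No vehicle, dose or length of treatment is given in the sources used here. Nothing states that replicates were separate cultures or animals; p-values therefore reflect the spread between these libraries alone, which may be technical.

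Total counts per library lay between 28321986 and 35196387. Of 12 symbols listed as alveolar macrophage markers, 11 were in the table and none of these was at 0 in any library. The symbol not found was Chil3, another name of Chi3l3, which was present. Their summed level was between 9975 and 10646 CPM (counts scaled to library size) where GM-CSF was absent, between 13106 and 13130 CPM where it was given alone and between 16702 and 16797 CPM in the DON group. Single markers went different ways: Chi3l3, the most abundant, went from 1809 and 1818 to 5534 and 5549 and then 7759 and 7641 CPM, and without it the sum was 8837 and 8156, 7596 and 7556, and 9037 and 9060.4 CPM. Car4 went from under 1 CPM to 661 and 652 CPM, while Cd68 went from 2897 and 2829 to 1653 and 1611 CPM and Fabp4 from 686 and 733 to 335 and 309 CPM with GM-CSF. Of 19 markers of epithelium, lymphocytes, granulocytes, stroma and dendritic cells, 14 were in the table, summing to between 23.8 and 27.1 CPM, with 0 to 5 of them at 0 in a library. Within that sum the granulocyte marker S100a8 was at 15.95 and 17.23 CPM where GM-CSF was absent and between 3.04 and 4.34 CPM in the other libraries. The dendritic cell marker Clec9a was at 4.33 and 4.51, 8.54 and 8.46, and 16.4 and 14.6 CPM in the 3 groups, and Zbtb46 at 0.891 and 0.861, 8.04 and 8.46, and 2.83 and 4.42 CPM. The part of these markers' differences in the results below was not tested, and in bulk RNA fewer cells of a type and less RNA per cell cannot be told apart.

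All 83 genes passed the filter on low counts, among 12340 genes tested. Compared per transcript length, as deposited FPKM (fragments scaled to transcript length and library size), their mean level over the 6 libraries ran from 1.95 to 2876 FPKM. The highest was Rplp1, an acidic protein of the large subunit's stalk, at 2876 FPKM. Rpl41, one of the shortest proteins known, followed at 2206 FPKM, then the small-subunit proteins Rps26 at 1819, Rps24 at 1795 and Rps2 at 1373 FPKM. The values of Rps26 and Rps24 overlapped within each group. At the low end stood Rpl3l, the muscle paralogue of Rpl3, at 1.95 FPKM, and Rpl39l, a paralogue of Rpl39 known from testis, at 2.83 FPKM. They were followed by Rpl5 at 13.6, Rpl27a at 17.9 and Rpl27 at 32.0 FPKM, which are core proteins with no known tissue restriction. In all, 13 of the 83 genes were under 100 FPKM.

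**Figure D1:**
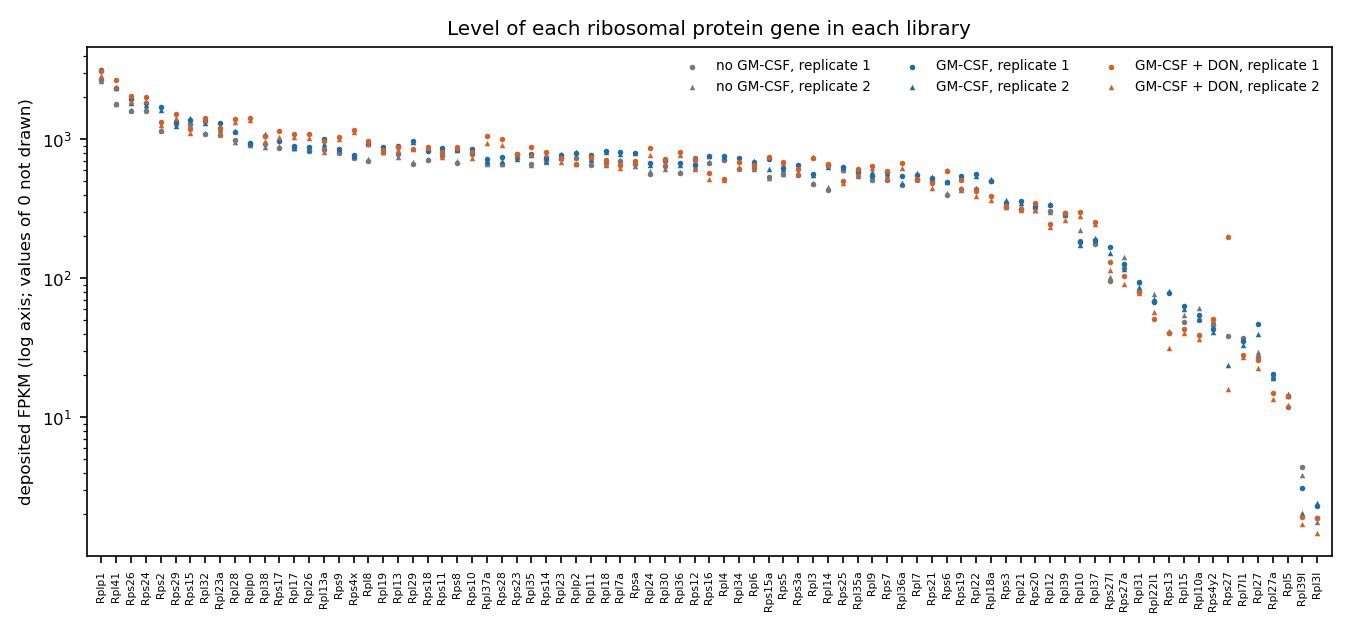
Deposited FPKM (log axis) of each of the 83 ribosomal protein genes in each of the 6 libraries, ordered by mean level; circles are replicate 1, triangles replicate 2, colours are the groups. From the left, Rplp1 at 2876 FPKM leads a long plateau, and 13 genes fall under 100 FPKM at the right; Rps27 is the gene whose libraries differ most, with 2 values of 0 not drawn.

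The low level of some core genes went with counts in other rows of the same table. Ribosomal protein genes have many processed copies, intronless sequences returned to the genome from the messenger RNA, and the table held 271 rows annotated as such copies, or named like them, that share at least 10% of the 50-base words of a transcript of 65 of the 83 genes. Most copy rows were nearly empty (median 13 counts over the 6 libraries), but 12 had at least 10000. For 6 genes the gene's own row held under 20% of the counts of gene and copies together: 3.15% for Rpl5, 4.55% for Rpl27a, 8.57% for Rpl27, 9.55% for Rpl10a, 15.1% for Rpl10 and 18.2% for Rpl15. Rpl5, a protein that binds 5S ribosomal RNA, had 3166 counts at chr5:107900502-107909005 (GRCm38, 8 exons), against 97426 for its copy Gm15500 at chr7:114705217-114706235.

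Over the coding sequence, 10 of the 12 well-filled copies had no mismatch with their gene, including all 6 that outnumbered it. The first 60 coding bases of 3 of these genes are shown because a read lying within them has the same letters in gene and copy. They were read from the GENCODE vM21 transcripts (GRCm38), capitals mark the start codon, and each line holds for gene and copy alike.
Rpl5 and Gm15500: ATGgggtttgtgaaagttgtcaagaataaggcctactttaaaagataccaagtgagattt
Rpl10 and Rpl10-ps3: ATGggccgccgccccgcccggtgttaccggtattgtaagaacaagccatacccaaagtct
Rpl27a and Gm7536: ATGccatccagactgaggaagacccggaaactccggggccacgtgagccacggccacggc
These genes and copies were identical over 891, 642 and 444 coding bases. The lowest identity among the 12 was 99.58%, for Rpl21 and its copy Gm10163, of which coding bases 306 to 365 are shown with 1 of their 2 mismatches in capitals.
Rpl21: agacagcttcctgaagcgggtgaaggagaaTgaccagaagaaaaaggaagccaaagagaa
Gm10163: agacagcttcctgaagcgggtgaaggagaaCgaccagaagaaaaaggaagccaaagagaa
Over all 83 genes, the median share of a transcript's 50-base words also found in transcripts of other genes was 53.6%, and 3 genes shared none. How the deposited counts treated reads with several possible origins is not given in the sources used here. For most results below on a named gene with a well-filled copy, a value for the copy or for gene and copies summed stands beside it. This alternative was chosen after the data were seen. Counts and sums over many genes use own rows unless stated.

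**Figure D2:**
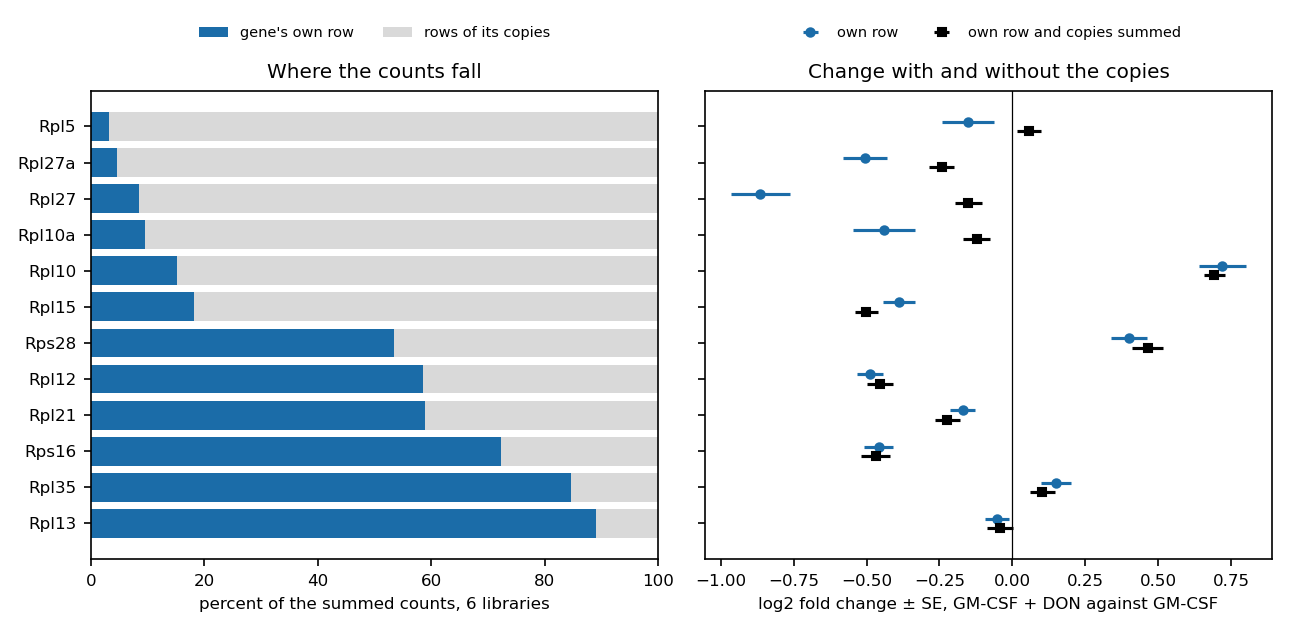
The 12 ribosomal protein genes whose copies held at least 10000 counts; left, the percentage of summed counts in the gene's own row (blue) and in its copies (grey), right, the log2 fold change (± SE) between the DON group and GM-CSF alone for the own row (circles) and with copies summed (squares). Rpl27 moves from -0.86 to -0.15 when copies are added, while Rpl10 stays at 0.72 and 0.69.

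The first comparison asked how the messages differed between macrophages with and without GM-CSF. Ribosomal protein genes were slightly higher with GM-CSF: 46 of 83 rose and 1 fell, by edgeR's quasi-likelihood test at a Benjamini-Hochberg adjusted p under 0.05 over all genes. Of all genes tested, 56.8% were called, 27.5% higher and 29.3% lower. The share of ribosomal protein genes called (56.6%) was near that of all genes, but 55.4% of them were higher and 1.20% lower. Changes were small: the median log2 fold change was 0.14, a 1.10-fold rise, against -0.02 for all genes, 70 of 83 genes lay above 0, and no called gene changed 2-fold. The small and large subunits had the same median of 0.14, with 18 of 33 and 28 of 50 genes higher.

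The largest rise was that of Rps13, a small-subunit protein at the interface with the large subunit. Rps13 had 18.01 and 19.6 CPM in the libraries lacking GM-CSF, 32.5 and 33.5 CPM with the cytokine alone and 17.9 and 13.8 CPM when DON was present too. Both libraries with GM-CSF alone lay above the other 4. Rps13 rose by 0.81 ± 0.10 (log2 ± SE; edgeR adjusted p = 8.77e-05), or 1.75-fold. Its 2 copy rows held 11 counts in all, against 4315 in its own row. Still, 83.0% of its 50-base words also occur in transcripts of 6 other genes. Whether its own row held all of its reads was not tested.

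Next came Rps27l, a paralogue of Rps27 known as a p53 target, at 0.72 ± 0.08 (adjusted p = 2.24e-05, edgeR). It had 30.1 and 31.5 CPM in the libraries lacking GM-CSF, 53.1 and 48.2 CPM with the cytokine alone and 41.5 and 36.6 CPM when DON was present too; the groups did not overlap. The row of Rpl27 rose by 0.64 ± 0.10 (edgeR adjusted p = 0.000332), from 12.6 and 13.4 CPM to 21.9 and 18.5 CPM. With its copies summed the value was 0.22 ± 0.05 (edgeR adjusted p = 0.00225); the own row held 8.57% of the family's counts.

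Rpl14, Rpl29 and Rps2 followed. Rpl14, a large-subunit protein, had 270.0 and 281 CPM in the libraries lacking GM-CSF, 399.9 and 387 CPM with the cytokine alone and 421 and 407 CPM when DON was present too; libraries without GM-CSF were the lowest. It rose by 0.52 ± 0.04 (edgeR adjusted p = 3.51e-06). Rpl29 rose by 0.51 ± 0.04 (edgeR adjusted p = 2.07e-06), from 359 and 371 to 523 and 514 CPM. Rps2, which lies near the path by which messenger RNA enters the ribosome, rose by 0.49 ± 0.04 (edgeR adjusted p = 4.18e-06), from 845 and 863 to 1232 and 1165 CPM.

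The 1 lower gene was Rps4y2, which GENCODE calls Rps4l and annotates as a transcribed processed pseudogene at chr6:148354656-148355598; it is the only one of the 83 not annotated as protein coding. It had 34.7 and 37.5 CPM in the libraries lacking GM-CSF, 32.6 and 31.0 CPM with the cytokine alone and 38.9 and 38.0 CPM when DON was present too, and fell by 0.18 ± 0.06 (edgeR adjusted p = 0.0287); it was not called with scaling by total counts or by DESeq2. Rpl10, which joins in the last steps of large-subunit maturation, was -0.20 ± 0.08 in its own row (edgeR adjusted p = 0.0629). With its copies summed Rpl10 was -0.18 ± 0.04 (edgeR adjusted p = 0.00167), a fall against the direction of most of the genes.

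The count of higher genes depended on the scaling between libraries. It was 67 with total counts, where the median of all genes itself moved to 0.10 and all genes split into 37.2% higher and 21.8% lower, and it was 33, with 5 lower, with upper-quartile scaling. Without GM-CSF replicate 1 it was 29.

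**Figure D3:**
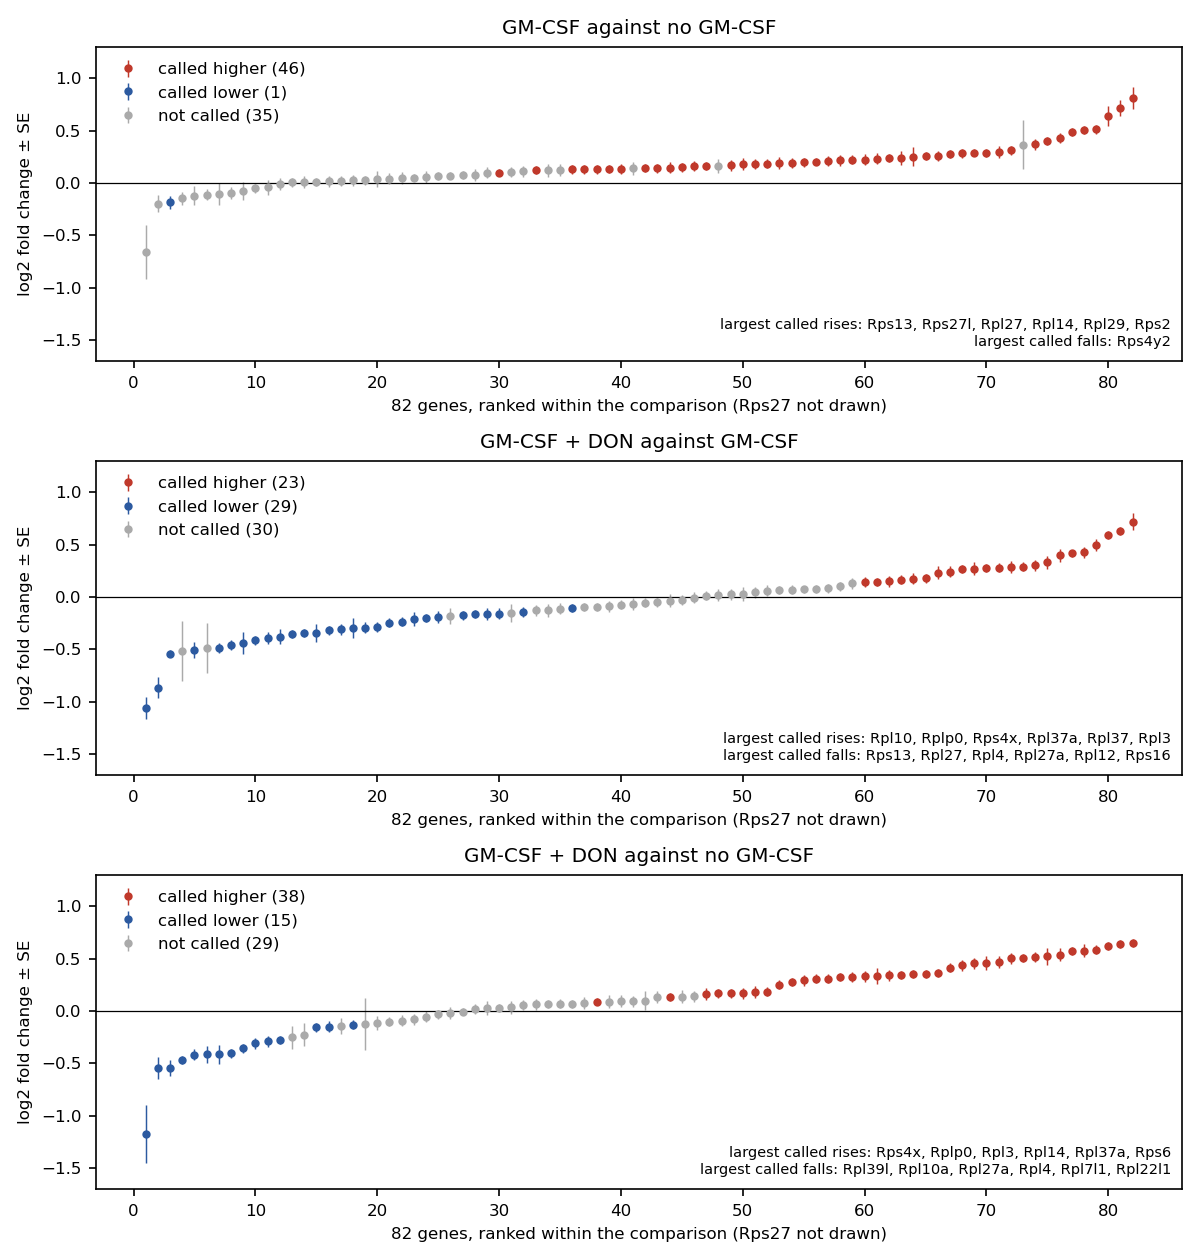
Log2 fold changes (± SE) of 82 ribosomal protein genes in each of the 3 comparisons, ranked within each; red and blue points were called higher or lower (edgeR adjusted p under 0.05), grey ones were not. With GM-CSF 46 points are red and 1 blue; with DON added 23 are red and 29 blue. Rps27 is not drawn because its SE was over 1.

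The second comparison set the DON group against the group with GM-CSF alone. Here ribosomal protein genes went both ways: 23 of 83 were higher and 29 lower, beside 28.8% higher and 28.8% lower among all genes (57.6% called). The shares of ribosomal protein genes, 27.7% and 34.9%, were near those backgrounds, and the median log2 fold change was -0.05, against 0.01 for all genes. With upper-quartile scaling the split was 31 higher and 20 lower and the median 0.02, where all genes split into 34.6% higher and 24.1% lower, so the balance between rises and falls depended on the scaling. Without the 13 genes under 100 FPKM the counts were 22 and 22. Called changes ran from -1.06 ± 0.11 for Rps13 to 0.72 ± 0.08 for Rpl10 among genes that make up the same particle.

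Rpl10 led the rises. Its row had 115 and 139 CPM in the libraries lacking GM-CSF, 115 and 107 CPM with the cytokine alone and 189.8 and 176 CPM when DON was present too, a rise of 0.72 ± 0.08 (edgeR adjusted p = 4.22e-05), and its copy Rpl10-ps3, at chr9:50344201-50344968, rose by 0.69 ± 0.04 (adjusted p = 8.76e-07). Gene and copies summed gave 0.69 ± 0.04. Rplp0, the base of the stalk that recruits elongation factors, had 955 and 963 CPM in the libraries lacking GM-CSF, 971 and 959.9 CPM with the cytokine alone and 1534 and 1454 CPM when DON was present too. Both libraries with DON lay above the other 4, which were close together. Rplp0 rose by 0.63 ± 0.04 (edgeR adjusted p = 7.07e-07), or 1.55-fold.

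Rps4x, the X-linked form of the small-subunit protein Rps4, had 525 and 533 CPM in the libraries lacking GM-CSF, 555 and 541 CPM with the cytokine alone and 841 and 817 CPM when DON was present too. Rps4x rose by 0.60 ± 0.04 (edgeR adjusted p = 8.88e-07) and again only the DON libraries stood apart. The zinc-binding large-subunit proteins Rpl37a and Rpl37 rose by 0.50 ± 0.06 and 0.43 ± 0.06 (adjusted p = 6.02e-05 and 0.000113). Rpl37a had 268 and 265 CPM in the libraries lacking GM-CSF, 290.3 and 272 CPM with the cytokine alone and 423 and 373 CPM when DON was present too. Rpl3, whose protein reaches into the peptidyl transferase centre, had 563 and 571 CPM in the libraries lacking GM-CSF, 658 and 649 CPM with the cytokine alone and 871 and 874 CPM when DON was present too, in steps without overlap, and rose by 0.42 ± 0.04 (edgeR adjusted p = 6.01e-06).

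The largest fall was that of Rps13, at -1.06 ± 0.11 (edgeR adjusted p = 1.84e-05), from 32.5 and 33.5 CPM with GM-CSF to 17.9 and 13.8 CPM with DON added. The DON libraries of Rps13 were the lowest of the 6, 1 of them close to a library without GM-CSF. Rpl4, a long protein of the large subunit's exit tunnel, had 879 and 890.1 CPM in the libraries lacking GM-CSF, 939 and 921 CPM with the cytokine alone and 643 and 635 CPM when DON was present too. It fell by 0.54 ± 0.04 (edgeR adjusted p = 1.12e-06), with both DON libraries below the other 4, and only 1 other gene shared any of its 50-base words.

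Rpl12, which sits at the foot of the stalk, fell by 0.49 ± 0.05 (edgeR adjusted p = 1.08e-05) from 292 and 280.5 to 209.5 and 199 CPM, and its copy Gm10275 was at -0.41 ± 0.05. Rps16, which lies near the decoding site, fell by 0.46 ± 0.05 (adjusted p = 3.03e-05, edgeR) from 353 and 347 to 267 and 243 CPM, and Rps16-ps2 was at -0.50 ± 0.09. For these genes, row and copy gave like values. Rpl27 and Rpl27a did not: the own row of Rpl27 fell by 0.86 ± 0.10 (edgeR adjusted p = 5.51e-05), but summed with its copies the value was -0.15 ± 0.05 (adjusted p = 0.0167). Rpl27a fell by 0.50 ± 0.08 (edgeR adjusted p = 0.000266) in its row, 17.3 and 16.7 against 12.1 and 11.9 CPM, and was at -0.24 ± 0.04 when summed.

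**Figure D4:**
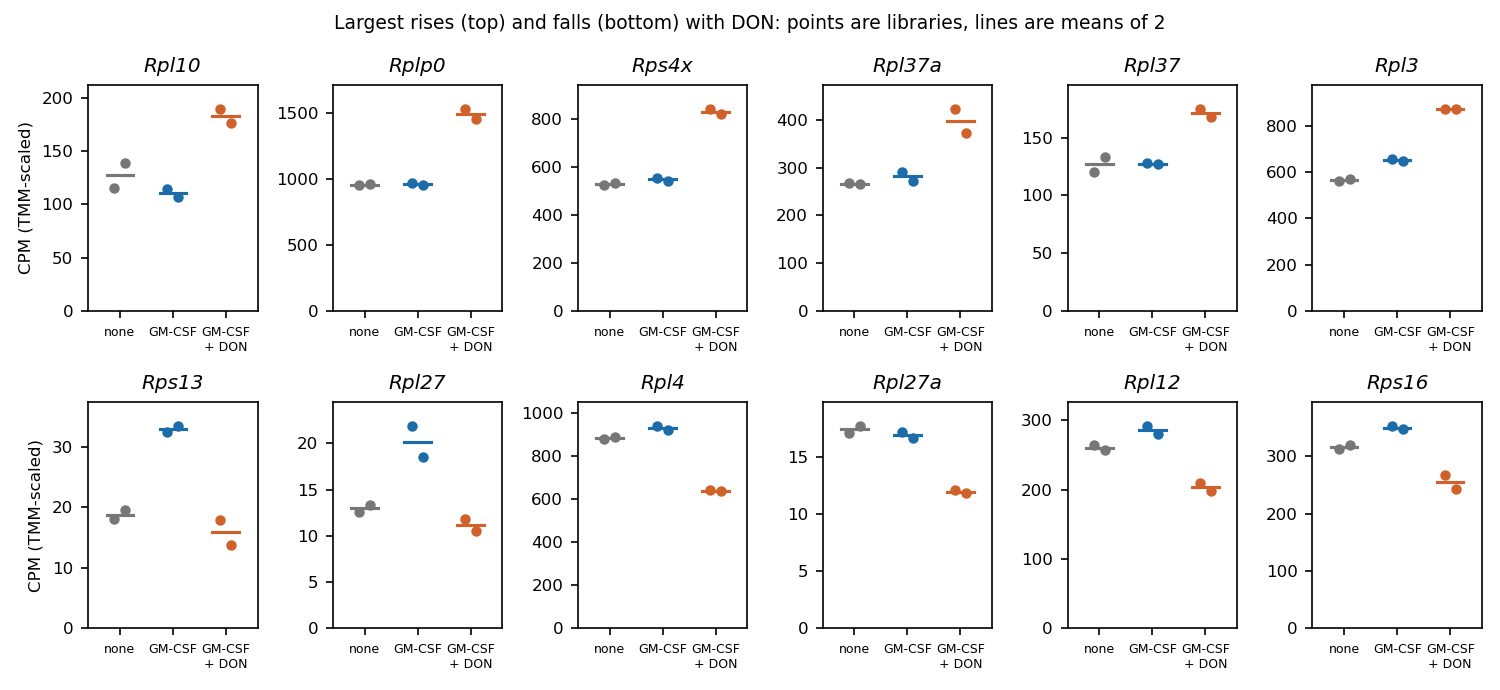
TMM-scaled CPM of the 12 genes with the largest called rises (top) and falls (bottom) between the DON group and GM-CSF alone; points are libraries and lines the means of 2, on axes from 0. Rplp0, Rps4x and Rpl4 are nearly level between the groups without DON, while Rps13 and Rpl27 are high only with GM-CSF alone.

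The start regions of these genes bear on the pyrimidine tract, so the 4 largest called rises and the 4 largest called falls are shown from the RefSeq promoter table (GRCm38.p6), from 70 bases before the annotated start to 30 after. Capitals mark CTTTC or CTTCC on the coding strand, short pyrimidine words like those that open TOP messages, searched from 30 bases before to 50 after the start. The first 4 rose with DON and the last 4 fell.
Rpl10 (chrX:74270746-74270845, plus strand): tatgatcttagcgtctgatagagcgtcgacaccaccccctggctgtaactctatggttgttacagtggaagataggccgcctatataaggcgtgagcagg
Rplp0 (chr5:115559397-115559496, plus strand): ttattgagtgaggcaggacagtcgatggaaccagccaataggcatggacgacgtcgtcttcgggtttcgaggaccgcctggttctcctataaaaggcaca
Rps4x (chrX:102189362-102189461, minus strand): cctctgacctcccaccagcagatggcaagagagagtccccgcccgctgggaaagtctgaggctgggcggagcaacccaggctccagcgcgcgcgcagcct
Rpl37a (chr1:72711190-72711289, plus strand): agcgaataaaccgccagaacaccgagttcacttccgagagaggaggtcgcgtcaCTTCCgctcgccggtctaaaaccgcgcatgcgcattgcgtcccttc
Rps13 (chr7:116334161-116334260, minus strand): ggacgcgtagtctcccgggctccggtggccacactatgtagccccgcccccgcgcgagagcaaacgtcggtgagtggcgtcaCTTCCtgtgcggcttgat
Rpl27 (chr11:101442175-101442274, plus strand): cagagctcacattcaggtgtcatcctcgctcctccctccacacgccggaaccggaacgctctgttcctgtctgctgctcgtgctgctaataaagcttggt
Rpl4 (chr9:64173317-64173416, plus strand): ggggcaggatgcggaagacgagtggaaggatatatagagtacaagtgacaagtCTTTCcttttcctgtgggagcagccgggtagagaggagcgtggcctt
Rpl27a (chr7:109519125-109519224, plus strand): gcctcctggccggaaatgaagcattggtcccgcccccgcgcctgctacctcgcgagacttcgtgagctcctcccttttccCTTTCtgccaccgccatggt
Within these windows the words stood in 1 of the 4 that rose and 3 of the 4 that fell. The picks rest on own rows, which for Rpl27 and Rpl27a held 8.57% and 4.55% of family counts. With copies summed these 2 were at -0.15 and -0.24. Rpl10, among the rises, held 15.1% in its own row and was at 0.69 when summed. The windows of Rpl27 and Rpl37a end before the starts of those genes in GENCODE, 101442298 and 72711290. The word marked for Rpl37a, the only one among the rises, therefore lies before the GENCODE start of that gene. Whether the annotated starts are those used in these cells was not tested.

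The promoter table matched 62 of the 83 genes. It held 14 of the 23 genes called higher with DON and 23 of the 29 called lower, so rises were missing more often than falls. One of the pyrimidine words was present in 45 of the 62 (72.6%), against 27.4% of all 27025 genes in the table. With DON, 28.8% of all genes tested were higher and 28.8% lower. Of the 45, 6 were higher and 19 lower, with a median of -0.15. Of the 17 without either word, 8 were higher and 4 lower, with a median of 0.13. This is a description of a word search and was not tested; the median share of 50-base words shared with other genes was 53.6% in the first set and 64.1% in the second. The word CCGGAAG, bound by ETS factors and searched on both strands over 300 bases, was in 41.9% of the 62 and 9.93% of all genes. AAGATGG, a core of the YY1 site, was in 16.1% and 7.28%, on both strands, and TATAAA, on the coding strand within 50 bases before the start, in 1.61% and 3.15%. A match does not show that a factor is bound.

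The third comparison set the DON group against the group lacking GM-CSF. Here 38 of 83 ribosomal protein genes were higher and 15 lower, beside 27.2% and 28.4% of all genes (55.6% called), with a median of 0.10 against 0.01. It shares its libraries with the other comparisons, so its values are not independent of theirs. The largest rises were those of Rps4x (0.65 ± 0.04), Rplp0 (0.64 ± 0.04) and Rpl3 (0.62 ± 0.04), with edgeR adjusted p of 3.09e-07, 3.73e-07 and 2.70e-07. Rpl14, Rpl37a and Rps6 followed at 0.59 ± 0.04, 0.58 ± 0.06 and 0.58 ± 0.04.

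Among the falls, Rpl39l had the largest, at -1.17 ± 0.28 (edgeR adjusted p = 0.00483), from 2.61 and 2.35 to 1.19 and 1.01 CPM, a gene of 332 counts in all. Rpl4 fell by 0.47 ± 0.04 (edgeR adjusted p = 2.11e-06), Rpl7l1, a nucleolar relative of Rpl7, was at -0.42 ± 0.05 and Rpl22l1 at -0.41 ± 0.09, both called lower. The rows of Rpl10a and Rpl27a were lower, at -0.54 ± 0.11 and -0.54 ± 0.07 (edgeR adjusted p = 0.00154 and 0.00016), but with copies summed Rpl10a was 0.01 ± 0.05 (adjusted p = 0.855) and Rpl27a -0.11 ± 0.04 (adjusted p = 0.0533), neither of them called. Scaled by total counts, all genes split into 35.7% higher and 22.3% lower in this comparison, and ribosomal protein genes into 52 and 12.

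Genes of the same structure or role did not share 1 pattern. Of the stalk genes, Rplp0 was 0.01 ± 0.04 with GM-CSF and 0.63 ± 0.04 with DON added, Rplp1 was 0.19 ± 0.06 and -0.0042 ± 0.06, and Rplp2 was 0.13 ± 0.04 and -0.23 ± 0.04, where only the second value of Rplp1 and the first of Rplp0 were not called. The comparisons share the GM-CSF libraries, so paired values of a gene are not independent. Rplp1 had 818 and 809 CPM in the libraries lacking GM-CSF, 979 and 877 CPM with the cytokine alone and 962 and 889 CPM when DON was present too, with all libraries with GM-CSF above those without. The 5S RNA partners Rpl5 and Rpl11, which hold the p53 ligase Mdm2 in check when ribosome assembly fails, gave -0.15 ± 0.09 and 0.03 ± 0.05 with DON (edgeR adjusted p = 0.171 and 0.708), neither of them called; summed with its copies Rpl5 was 0.06 ± 0.04. With GM-CSF the row of Rpl5 rose by 0.25 ± 0.09 (edgeR adjusted p = 0.0341), but with copies summed it was 0.07 ± 0.04 (adjusted p = 0.17). Rpl11 was 0.11 ± 0.05 with GM-CSF (edgeR adjusted p = 0.103), also not called.

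Rps6, the small-subunit protein phosphorylated by S6 kinase, rose in both steps, by 0.28 ± 0.04 with GM-CSF and 0.29 ± 0.04 with DON (edgeR adjusted p = 0.000188 and 0.00016). Rps6 had 273 and 284 CPM in the libraries lacking GM-CSF, 342 and 337 CPM with the cytokine alone and 409.9 and 420.4 CPM when DON was present too, without overlap. Rps3, which also has roles in DNA repair, was 0.14 ± 0.04 with GM-CSF (edgeR adjusted p = 0.0121) and -0.07 ± 0.04 with DON (adjusted p = 0.156). Rps19, the gene most often mutated in Diamond-Blackfan anaemia, rose by 0.29 ± 0.06 and then fell by 0.16 ± 0.06 (edgeR adjusted p = 0.00153 and 0.0344). Rpl13a did likewise, at 0.24 ± 0.07 and -0.21 ± 0.07 (adjusted p = 0.0113 and 0.0197).

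Rpsa, a small-subunit protein also known as a laminin receptor, was the gene with the most counts of the 83 (228044). It had 1101 and 1078 CPM in the libraries lacking GM-CSF, 1340.4 and 1323 CPM with the cytokine alone and 1164 and 1153 CPM when DON was present too, rose by 0.29 ± 0.03 and fell by 0.20 ± 0.03 (edgeR adjusted p = 5.29e-05 and 0.000648). Rps27a, made as a fusion with ubiquitin, was -0.12 ± 0.09 with GM-CSF (not called) and fell by 0.29 ± 0.09 with DON (edgeR adjusted p = 0.0223). Its 2 libraries without GM-CSF, 66.7 and 80.2 CPM, overlapped those with GM-CSF, 70.7 and 64.4 CPM.

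Paralogues are given beside the genes they are named after. Rpl22l1 and Rpl22 fell with DON, at -0.34 ± 0.09 and -0.29 ± 0.05 (edgeR adjusted p = 0.00665 and 0.000833), but with GM-CSF only Rpl22 was called, at 0.22 ± 0.05 (adjusted p = 0.00512), against -0.07 ± 0.08 for Rpl22l1. Rpl7l1, at 33.0 FPKM, had -0.31 ± 0.05 with DON and Rpl7, at 533 FPKM, -0.11 ± 0.04, both called lower (edgeR adjusted p = 0.000726 and 0.0343). Rpl3l had 1.60 and 1.51 CPM in the libraries lacking GM-CSF, 1.97 and 2.05 CPM with the cytokine alone and 1.61 and 1.26 CPM when DON was present too, and passed in no comparison. The difference between a paralogue and its namesake was not tested. Rpl39 was called in no comparison, with log2 fold changes of 0.05 ± 0.06 and -0.07 ± 0.06. Rps27l fell with DON by 0.38 ± 0.07 (edgeR adjusted p = 0.00157).

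The row of Rps27 itself gave no usable level. It held 206 and 0 counts where GM-CSF was absent, 0 and 116 where it was given alone and 940 and 86 in the DON group, with replicates of each group far apart. Of its 50-base words, 98.7% also occur in transcripts of 9 other genes, and Rps27 was not called in any comparison.

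Summed over all 83 genes, the share of counts was lower in both libraries without GM-CSF (2.43% and 2.50%) than in the 4 others (2.95% to 3.08%). The subunits contributed alike: 40S genes took 1.01% ± 0.0206 where GM-CSF was absent, 1.24% ± 0.0270 in its presence and 1.22% ± 0.0363 in the DON group (SD, n = 2), and 60S genes 1.46% ± 0.0294, 1.78% ± 0.0370 and 1.80% ± 0.0517. The ratio of 60S to 40S counts in the genes' own rows was 1.4561 and 1.4554 where GM-CSF was absent and 1.4352 and 1.4372 where it was given alone. In the DON group it was 1.4735 and 1.4757, so that the 3 groups did not overlap. Copies, left out of this ratio, held 0.293%, 0.337% and 0.346% of counts in the 3 groups. The fullest copy rows, such as Rpl10-ps3 with 149798 counts, belong to 60S genes, and whether the groups stay apart with copies added was not tested. An exact two-sided permutation test of 2 libraries against 2 cannot go below p = 0.333, the value for the share of counts in both comparisons against no GM-CSF. The 10 genes with the most counts over all 6 libraries together took 14.2% ± 0.114, 11.8% ± 0.101 and 14.2% ± 0.296 of counts in the 3 groups. Mitochondrially encoded genes took 3.21% ± 0.0936, 2.42% ± 0.282 and 2.54% ± 0.0863. The part of both in the shares was not tested.

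Genes that work with the ribosome are given in the same comparisons, which share the libraries with GM-CSF alone; of all genes, 27.5% were higher and 29.3% lower with GM-CSF, and 28.8% each way with DON added. Of 69 genes of ribosome biogenesis and RNA polymerase I, 43 were higher and 2 lower with GM-CSF, and 4 were higher and 43 lower with DON added, with medians of 0.27 and -0.26. Nolc1 and Nop58, nucleolar proteins that serve the modification of ribosomal RNA, rose by 0.57 ± 0.05 and 0.56 ± 0.05 (edgeR adjusted p = 1.01e-05 and 1.20e-05) and fell with DON, at -0.95 ± 0.05 and -0.97 ± 0.06 (adjusted p = 5.19e-07 and 5.29e-07). The 83 ribosomal protein genes had medians of 0.14 and -0.05; the difference between the lists was not tested.

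Of 76 mitochondrial ribosomal protein genes, 47 were higher and 1 lower with GM-CSF, and 10 were higher and 35 lower with DON. Mrpl18 went from 32.8 ± 0.913 to 50.5 ± 1.22 CPM with GM-CSF and to 24.2 ± 0.348 CPM with DON (mean ± SD). Of 34 translation factors, 26 were higher and 2 lower with GM-CSF, and 5 higher and 20 lower with DON. Eif5a, which relieves stalled ribosomes, fell with DON by 0.83 ± 0.04 (edgeR adjusted p = 2.23e-07).

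Other messages known for a TOP tract went both ways: of 26, 15 were higher and 5 lower with GM-CSF, and 12 higher and 7 lower with DON. Eif4b and Eef2 rose with DON by 0.88 ± 0.04 and 0.70 ± 0.04, and Eef1g fell by 0.72 ± 0.04 (edgeR adjusted p = 1.24e-07, 2.36e-07 and 4.90e-07). Of ribosomal genes whose symbols lie outside the naming rule, Fau, Rpl36al and Gnb2l1 were higher with GM-CSF, and Fau and Rpl36al were lower with DON. Fau, a fusion of a ubiquitin-like protein with a small-subunit protein, had the largest values of the 3, 0.83 ± 0.09 and -0.81 ± 0.09 (edgeR adjusted p = 1.91e-05 and 2.71e-05).

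Of 24 genes of mTORC1 and of the control of TOP messages, 7 were higher and 6 lower with GM-CSF, shares near those of all genes, and 13 were higher and 6 lower with DON. Eif4ebp1, which blocks cap-dependent initiation when not phosphorylated, rose by 0.85 ± 0.06 with GM-CSF and by 0.36 ± 0.06 with DON (edgeR adjusted p = 9.08e-07 and 0.000295), and the S6 kinase gene Rps6kb1 rose by 0.70 ± 0.05 and 0.22 ± 0.05. Larp1 rose by 0.23 ± 0.04 and fell by 0.43 ± 0.04 (edgeR adjusted p = 0.00124 and 2.02e-05). Sesn2, an inhibitor of mTORC1 induced by amino acid stress, had the smallest adjusted p of this list with DON. It went from 36.6 ± 3.33 to 118 ± 1.31 CPM (mean ± SD). Myc, which drives ribosome biogenesis, was 65.5 ± 3.79 CPM where GM-CSF was absent and 72.0 ± 3.54 CPM in its presence (mean ± SD). In the DON group Myc was 48.4 ± 1.33 CPM (mean ± SD). It fell in the second step by 0.58 ± 0.06 (log2 ± SE, edgeR adjusted p = 2.64e-05). Mtor was called in no comparison, with log2 fold changes of -0.05 ± 0.11 and -0.06 ± 0.11.

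**Figure D5:**
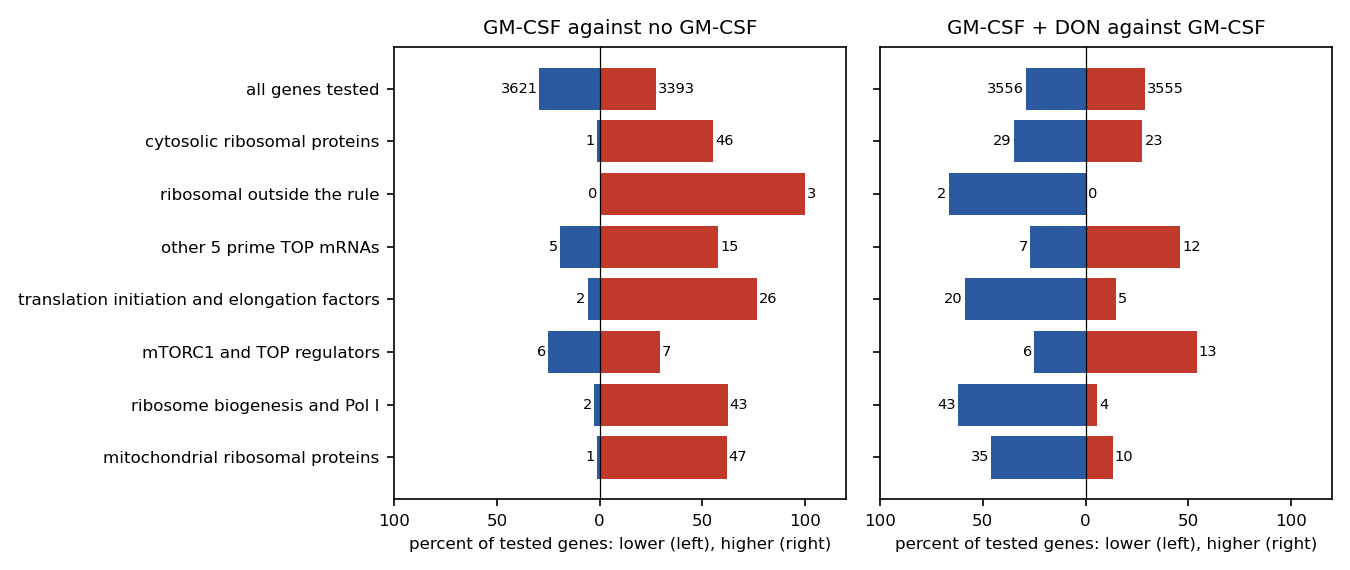
Percentage of tested genes called higher (red, right) or lower (blue, left) in all genes, in the 83 cytosolic ribosomal protein genes and in 6 related lists, for GM-CSF against none (left panel) and the DON group against GM-CSF alone (right panel); numbers at the bars are gene counts. With DON, ribosome biogenesis genes are mostly lower (43 of 69), while cytosolic ribosomal protein genes divide into 23 higher and 29 lower.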

How the data were processed

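Whole-number counts per gene and FPKM values were deposited by the authors for 6 libraries. Per the submitters' processing notes, the tools were DESeq2 1.28.1, Subread 1.4.6, featureCounts and STAR 2.6.0a and the build mm10, with roles unstated; annotation, strand and treatment of reads with several origins are not given in these sources. Groups came from titles and treatment labels.

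Counts were tested with edgeR 4.0.16 (quasi-likelihood, TMM, filterByExpr at a minimum count of 10, 1 coefficient per group, all 6 libraries) in R 4.3.3, with Benjamini-Hochberg adjustment over 12340 genes. CPM are TMM-scaled. The test was tried before use on simulated counts for GM-CSF against no GM-CSF, with 50 genes changed at each size. It recovered 38% of those changed 1.25-fold, 76% at 1.5-fold, 78% at 2-fold and 96% at 4-fold. There were 27 false calls in 12161 genes, beside 19, 38, 39 and 48 true calls at these sizes. Far fewer genes were changed in the simulation than the 56.8% called in the data. The simulation therefore does not show the rate of false calls in the data. Alternatives used DESeq2 1.42.0 and limma 3.58.1, other scalings and filters, log2(FPKM + 1), a replicate block and each library left out.

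Copies were rows annotated as processed copies or named as pseudogenes or predicted genes that share 50-base words with a gene (GENCODE vM21); tables and figures used Python 3.11.15. Named genes were the largest called changes (6 each way per comparison), paralogues, the 5 highest and lowest levels and a set of well-studied members; in related lists, up to 3 genes of smallest adjusted p and 5 regulators. Gene lists came from general knowledge, and the members and lists were chosen with earlier results of these data known. Replicate numbers were not used to pair the libraries in the main test. In the related lists, 1 gene is not reported here.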

Additional observations from a re-analysis of the deposited data

How the results depend on the processing

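The counts of higher genes stayed within 1.5 times under every alternative run except without GM-CSF replicate 1, and the median for GM-CSF against no GM-CSF stayed above 0 in all. With GM-CSF, the 1 lower gene became 0 with total counts and DESeq2, 5 with upper-quartile scaling, 2 without a filter, at a mean of 1 CPM, with limma-voom and with limma on log2(FPKM + 1), 3 with the replicate block, 2 with copies summed and 0 without genes under 100 FPKM; leaving out a library gave 0 to 4 lower and 29 to 46 higher genes. The median became 0.26 with total counts. With DON against GM-CSF the median turned to 0.0224 with upper-quartile scaling and 0.0042 without genes under 100 FPKM, and lay between -0.1067 and 0.0004 with a library left out, the last without DON replicate 2; counts were then 17 to 26 higher and 20 to 31 lower. With DON against no GM-CSF it was 0.1975 with total counts, 0.1681 without genes under 100 FPKM (9 lower genes) and 0.0604 to 0.1552 with a library left out. With copies summed, Rpl10a became 0.133150 and Rpl27a 0.133190 with GM-CSF, and Rpl10a 0.011058 with DON against no GM-CSF; these alternatives on copies and on genes under 100 FPKM were chosen after the data were seen. Over the named genes and all settings, 1842 values kept direction and call, 82 lost a call, 62 gained 1 and 3 turned. The share of counts became 2.95%, 3.51% and 3.58% without the 10 top and mitochondrial genes, and 7.05%, 8.55% and 8.58% as a share of summed FPKM.

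Same-numbered replicates deviated with correlations of -0.05, -0.31 and 0.07 over 8164 genes. Over 80 of the ribosomal protein genes the values were -0.18, -0.03 and 0.27, the last for GM-CSF alone and the DON group. With 2 libraries per group these values cannot decide whether the numbers pair the libraries. The replicate block changed the calls to 45 higher and 3 lower with GM-CSF, 23 and 29 with DON, and 37 and 14 for DON against no GM-CSF. For that last comparison, with its 4 libraries alone, crossed numbers gave 42 higher and 19 lower genes, straight numbers 37 and 13, and no block 39 and 14. The lowest depths were those of Rpl3l and Rpl39l, with 318 and 332 counts in all; counting error and replicate spread were not separated. Apart from the fewer samples, the cause of these shifts was not tested.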

Other observations

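Of the 83 ribosomal protein genes, 30 carry a small nucleolar RNA gene inside an intron or exon in GENCODE vM21 (small nucleolar RNAs guide the modification of ribosomal RNA and are cut from their host's transcript). With GM-CSF 19 of these 30 hosts were higher and none lower by edgeR, against 27 higher and 1 lower of the 53 others. Of all genes tested, 27.5% were higher and 29.3% lower with GM-CSF, and 28.8% each way with DON against GM-CSF. With DON, 5 hosts were higher and 13 lower, with a median log2 fold change of -0.12. Of the others 18 were higher and 16 lower, with a median of 0.03. The sets had similar shares of 50-base words in common with other genes, 54.5% and 53.6% in the median. Among the hosts, Rpl4 holds 5 such genes and fell by 0.54 ± 0.04 with DON, while Rpl3 holds 2 and rose by 0.42 ± 0.04. The difference between hosts and others was not tested.

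The 4 X-linked genes were Rpl10, Rps4x, Rpl36a and Rpl39. None was called in its own row with GM-CSF (edgeR), beside 56.8% of all genes tested, and 3 were higher with DON, with a median of 0.47. The row of Rpl10 held 15.1% of its family's counts, most of the rest lying in Rpl10-ps3 on chromosome 9. With copies summed, Rpl10 was called lower with GM-CSF, at -0.18 ± 0.04 (edgeR adjusted p = 0.00167). Of the 79 autosomal genes 20 were higher and 29 lower with DON, beside 28.8% each way of all genes tested. Rpl36a, named here after its values were seen, had 140.4 and 142 CPM in the libraries lacking GM-CSF, 163 and 145 CPM with the cytokine alone and 202 and 186 CPM when DON was present too, with the DON libraries highest, and rose by 0.33 ± 0.06 (edgeR adjusted p = 0.00109). Whether X-linked genes differ from the others was not tested.

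With DON, 28.8% of all genes tested were higher and 28.8% lower. Of the 70 genes at or above 100 FPKM, 22 were higher and 22 lower. Of the 13 genes under 100 FPKM, 1 was higher and 7 were lower, with a median of -0.39, and the difference was not tested. The group includes Rpl5, Rpl10a, Rpl15, Rpl27 and Rpl27a, most of whose family counts lay in copy rows. A split by level was chosen after the data were seen. Rpl15, also outside the rule for named genes, and its copy Rpl15-ps3 both fell, at -0.39 ± 0.06 and -0.53 ± 0.04 (edgeR adjusted p = 0.000184 and 3.23e-06), and Rps28 and Gm10443 both rose, at 0.40 ± 0.06 and 0.53 ± 0.05 (adjusted p = 0.000314 and 1.61e-05). For Rpl27 and Rpl10a the copy rows moved less than the gene rows: Rpl27-ps3 was -0.09 ± 0.04 and Rpl10a-ps1 -0.09 ± 0.04, against -0.86 ± 0.10 and -0.44 ± 0.11 for the genes.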
